A study of Mus musculus with 5 samples.

Results

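The genes examined here follow the oligodendrocyte lineage of the mouse spinal cord from precursor to myelin, and they were read out of a gene count table by symbol. All 39 listed genes were found among the 55471 gene identifiers of the table, and all 39 had enough counts to be among the 16052 genes tested. They were ordered as 6 precursor genes, 4 lineage transcription factors, 3 genes of committed precursors, 5 of newly formed oligodendrocytes and 21 of mature, myelinating cells. Bounds between these stages were drawn here from textbook knowledge.

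Polyadenylated RNA was sequenced from whole spinal cords. All mice were males of the strain C57BL/6J, at rest and 3 months old, and gave 3 wild type (WT) and 2 Lhx1os -/- (KO) libraries. The gene Lhx1os makes a long non-coding RNA. In the KO line, made with Cas9 and 1 guide RNA, a synthetic polyadenylation signal and MAZ elements were placed in the second exon to end transcription early, with the edit made in zygotes. The sources used here do not give the number of founders or say whether each library is a separate animal, so p-values measure the spread between these libraries, which may be technical.

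Oligodendrocytes wrap axons in myelin, the insulating membrane that speeds conduction, and the cord's white matter is rich in them. In the adult cord, precursors that carry the PDGF receptor alpha keep dividing. Some commit, pass through a short Gpr17-positive stage, become newly formed oligodendrocytes and switch on the myelin proteins. Transcription factors of the Olig, Sox and Nkx families set up the lineage, and Myrf drives the last step.

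Libraries held 15973063 to 19437533 counts. Lhx1os, the targeted gene, had 51 to 66 counts in WT and 11 to 13 in KO (log2 fold change −2.13, SE 0.28; adjusted p = 0.0589, edgeR quasi-likelihood test over all genes). The lineage was plainly present: its 39 genes took 2.97% to 3.33% of all counts, and Mbp and Mog were abundant in every library. Summed markers of meningeal fibroblasts ranged from 279.5 to 676.5 CPM in WT and from 357.6 to 384.9 CPM in KO, and those of Schwann cells from 215.1 to 444.6 CPM in WT and from 256.6 to 389.1 CPM in KO (CPM, scaled for library size by edgeR's TMM factors). WT replicate 1 was the lowest library for both. Neuron markers summed to 8466 to 9445 CPM in WT and 9270 to 9629 CPM in KO.

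No gene of the lineage passed an adjusted p of 0.05 in edgeR's quasi-likelihood test, in which 0.0187% of all genes passed. The lowest levels in KO relative to WT were those of the 3 committed precursor genes, Gpr17, Neu4 and Bmp4, whose mean levels were 34.9%, 27.2% and 46.4% lower. Genes before and after them in the lineage stood on both sides of 0, from −0.25 for Ermn to 0.40 for Opalin on the log2 scale. The 5 genes of newly formed cells had a median log2 fold change of −0.01, and the 21 mature genes one of −0.0060, against 0.00 over all genes tested. At an unadjusted p under 0.05 there were 10 of the 39 genes (25.6%), where 7.57% of all genes were. Of these 8 were lower in KO, against 4.07% of all genes, and 2 were higher, against 3.49%. The 39 genes were chosen with earlier results of these data known, so these shares are a description and not a test of the lineage. The groups did not overlap for 15 of the 39 (38.5%), where 24.9% of all genes did not. KO lay lower for 9 of them and higher for 6, while over all genes KO lay lower for 1920 and higher for 2075 of 16052. Fewer libraries overlap less by construction. The lineage count was 25 (64.1%) without WT replicate 2, against 41.9% of all genes, and 23 (59.0%) without KO replicate 1, against 51.7%. Without KO replicate 2 it was 19 (48.7%), against 52.8%. It was 21 (53.8%) without WT replicate 1, against 40.1%, and 16 (41.0%) without WT replicate 3, against 33.7%. In DESeq2, in which 0.246% of all genes passed, and in edgeR with robust dispersion, in which 0.0748% passed, 1 lineage gene passed, Gpr17. In whole tissue, fewer cells of a stage and less RNA per cell cannot be told apart.

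**Figure D1:**
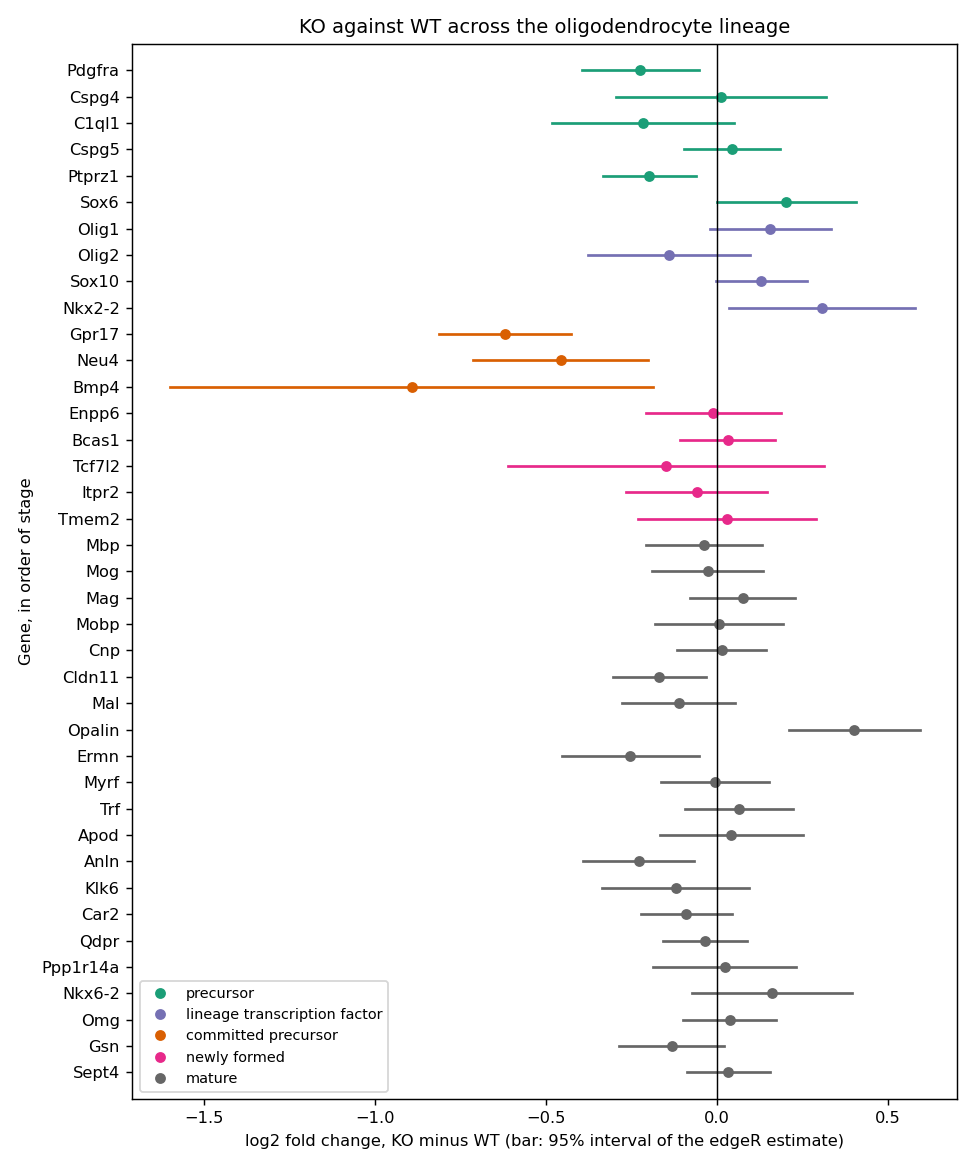
Log2 fold change of each of the 39 lineage genes (points, x axis, KO minus WT) with its 95% interval from edgeR (bars), in order of stage on the y axis and coloured by stage. Gpr17, Neu4 and Bmp4 lie furthest to the left, Opalin furthest to the right at 0.40, and most mature genes sit near 0.

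The promoters of 3 genes on which the results turn are shown here, Neu4 and Bmp4 as committed precursor genes with lower KO levels and Opalin as the mature gene with the highest log2 fold change. The sequences are RefSeq's for GRCm38.p6, from 250 bases before to 50 after RefSeq's start, on the gene's strand. RefSeq's start can differ from that of GENCODE M21, from which gene positions are given. The Gpr17 promoter is not shown here. Capitals mark matches, on either strand, to ACAANG (a core bound by Sox factors), to the E-boxes CAGCTG and, as the second, CATCTG (of the kind bound by Olig2), and to CTGGNAC (a loosened form of the Myrf motif).
Neu4, chr1:94020243-94020542, plus strand: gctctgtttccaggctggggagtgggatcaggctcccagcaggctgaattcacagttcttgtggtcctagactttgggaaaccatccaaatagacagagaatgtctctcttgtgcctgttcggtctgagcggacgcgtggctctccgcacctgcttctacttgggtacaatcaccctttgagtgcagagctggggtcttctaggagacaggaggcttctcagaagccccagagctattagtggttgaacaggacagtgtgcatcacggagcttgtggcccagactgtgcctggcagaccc
Bmp4, chr14:46390620-46390919, minus strand: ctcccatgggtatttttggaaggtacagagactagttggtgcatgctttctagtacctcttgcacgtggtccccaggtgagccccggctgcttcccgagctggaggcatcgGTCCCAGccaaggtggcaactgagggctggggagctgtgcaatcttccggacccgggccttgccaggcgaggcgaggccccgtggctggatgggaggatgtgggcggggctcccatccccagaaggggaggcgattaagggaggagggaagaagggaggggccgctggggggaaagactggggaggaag
Opalin, chr19:41077064-41077363, minus strand: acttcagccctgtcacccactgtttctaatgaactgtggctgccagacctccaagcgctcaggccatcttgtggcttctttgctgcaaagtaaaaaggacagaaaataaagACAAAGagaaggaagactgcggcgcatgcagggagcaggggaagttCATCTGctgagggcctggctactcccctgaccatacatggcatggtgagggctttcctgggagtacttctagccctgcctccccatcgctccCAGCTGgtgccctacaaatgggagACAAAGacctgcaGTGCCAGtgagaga
The Opalin window held 2 Sox matches and 1 each to the 2 E-boxes and the Myrf motif, with no overlap among them. The Bmp4 window held 1 Myrf match, and the Neu4 window held none of the 4 motifs. Among all 32851 promoters of this length, 41.2% held the Sox motif, 16.3% the first E-box, 17.2% the second and 19.3% the Myrf motif. Among the 24 promoter entries of mature genes the shares were 50%, 25%, 33.3% and 37.5%, in the same order. These entries are not independent. Gsn, Mag, Klk6 and Sept4 have several each, and some windows of Mag and of Sept4 overlap, so the same match can count more than once. The table had entries for 27 of the 39 genes, some with several starts, and a match is a run of letters, not a bound site.

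Committed precursors came first in the size of the difference. Gpr17 encodes a G protein-coupled receptor that marks cells leaving the precursor state and delays their maturation. It had 67.3, 69.5 and 67.3 CPM in WT against 39.9 and 48.8 CPM in KO. Both KO libraries lay below all 3 WT libraries, with an SD of 1.26 CPM in WT and 6.29 CPM in KO. The WT coefficient of variation was 1.85% over 3 CPM values, counting noise included. The common biological one of 7.48% over all genes tested leaves counting noise out, so these are unlike measures. The log2 fold change was −0.62 (SE 0.09, 95% interval −0.81 to −0.43) with an adjusted p of 0.0603 in edgeR, just outside the threshold. DESeq2 gave an adjusted p of 1.57e-05 and edgeR with robust dispersion 0.0257. The estimate was −0.48 without KO replicate 1 (adjusted p = 0.456 in edgeR) and −0.77 without KO replicate 2 (adjusted p = 0.0528). Without WT replicate 1, under which 0.363% of all genes passed, the adjusted p was 0.0295. It was 0.182 without WT replicate 2 and 0.104 without WT replicate 3 in edgeR, and limma-voom gave 0.0814. Gpr17 shares 188 of its 5195 exonic bases with Lims2 on the opposite strand, and the strand setting of the counting is not given in the sources used here. Lims2 was less abundant, with 18.1, 20.7 and 20.6 CPM in WT against 17.9 and 13.2 CPM in KO.

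Neu4, on chromosome 1 from 94020451 to 94028334 in GRCm38, encodes a sialidase, an enzyme that trims sialic acid from glycans. Its levels were 20.5, 18.1 and 17.1 CPM in WT and 13.4 and 13.6 CPM in KO, with no overlap. Its log2 fold change was −0.46 (SE 0.11; adjusted p = 0.392 in edgeR), which did not pass. The Neu4 estimate lay between −0.52 and −0.38 across all alternatives tried.

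Bmp4 encodes a secreted growth factor of the TGF-beta family that committed precursors make and that, when added to precursors, turns them toward astrocytes. It is also made by cells outside the lineage, including those of blood vessels and meninges. At 3.57, 5.16 and 8.06 CPM in WT and 3.13 and 2.88 CPM in KO, from 60 to 131 counts in WT and 46 to 51 in KO, it was the scarcest of the 3 in CPM. KO levels lay below WT levels, but WT replicate 1 came close to KO. The log2 fold change was −0.89 (SE 0.32; adjusted p = 0.603 in edgeR). It became −0.55 without WT replicate 3, −0.53 with the replicate number as a block and −0.53 with the meningeal marker score as a covariate, an alternative added after the data were seen. Summed meningeal markers were 279.5, 558.2 and 676.5 CPM in WT replicates 1, 2 and 3. In KO replicates 1 and 2 they were 357.6 and 384.9 CPM. Summed markers of endothelial and mural cells were 638.6, 873.1 and 863.8 CPM in WT and 810.6 and 575.5 CPM in KO. The part of these cells in the Bmp4 levels was not tested. With the meningeal marker score as a covariate Gpr17 stood at −0.61 and Neu4 at −0.52.

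**Figure D2:**
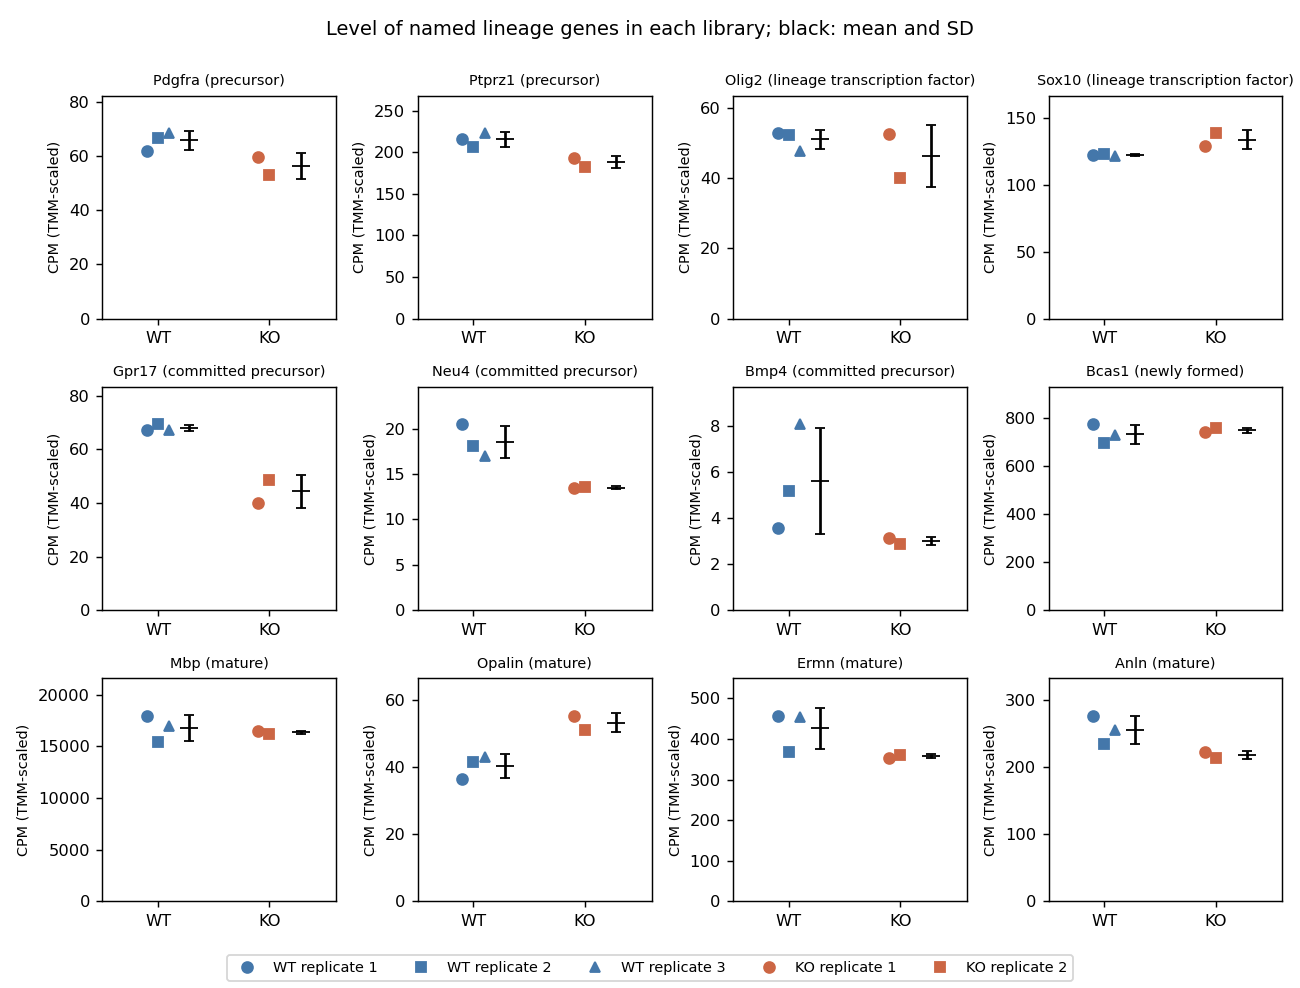
TMM-scaled CPM (y axes, from 0) of 12 lineage genes in each library, WT in blue and KO in orange, with the mean and SD of each group in black. Gpr17, Neu4 and Opalin part the groups with a visible gap, while Mbp, Bcas1 and Olig2 overlap.

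Relative to their neighbours in the lineage, the committed genes were lower in both KO libraries. The summed CPM of Gpr17, Neu4 and Bmp4 equalled 21.02%, 20.6% and 20.2% of the summed precursor genes for WT, against 13.2% and 16.2% for KO. Gpr17 made up most of the first sum, and Ptprz1 and Cspg5 together most of the second. Set against the Pdgfra level, Gpr17 amounted to 108.6%, 104.0% and 98.0% in WT and 66.7% and 92.1% in KO, where KO replicate 2 came close to WT replicate 3. Set against the Bcas1 level, Gpr17 amounted to 8.70%, 10.0% and 9.24% in WT and 5.39% and 6.45% in KO. Set against the Sox10 level, it amounted to 54.9% to 56.5% in WT and 30.9% to 35.0% in KO. These ratios carry no test and rest on the same counts as the levels above.

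Precursor genes stood on both sides of 0, 3 lower and 3 higher in KO (median log2 fold change −0.09). Pdgfra (chromosome 5, 75152292 to 75198215), the receptor through which PDGF drives precursor division, had 61.9, 66.8 and 68.6 CPM in WT and 59.7 and 52.9 CPM in KO. The groups were parted by a narrow margin between WT replicate 1 and KO replicate 1. Its log2 fold change was −0.22 (SE 0.08; adjusted p = 0.586 in edgeR), and −0.14 without KO replicate 2. Pdgfra is also expressed by meningeal fibroblasts, whose markers were lower in KO in 13 of 13 cases (median log2 fold change −0.44, none passing). Their summed levels in KO lay inside the WT range. With the meningeal marker score as a covariate the Pdgfra estimate was −0.18. The part of these cells in the Pdgfra levels was not tested.

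Ptprz1 (chromosome 6, 22875502 to 23052916), a receptor phosphatase bound by pleiotrophin, had 216.3, 206.1 and 223.3 CPM in WT and 192.8 and 182.5 CPM in KO. Every KO library was again below every WT library. The log2 fold change of −0.20 (SE 0.06; adjusted p = 0.520 in edgeR) did not pass, and astrocytes express the gene too. Sox6, a transcription factor that holds precursors back from maturing, lay on the other side, with 19.8, 20.8 and 22.2 CPM in WT and 24.4 and 23.7 CPM in KO (log2 fold change 0.20, SE 0.09; adjusted p = 0.658 in edgeR). The proteoglycan genes Cspg4, which encodes NG2, and Cspg5 had log2 fold changes of 0.01 (SE 0.14) and 0.04 (SE 0.06). C1ql1, a secreted C1q-like protein, stood at −0.21 (SE 0.12). Per kilobase of exon, Ptprz1 had the highest WT level of the 6, at 15.1 CPM per kb, and Sox6 the lowest, at 1.41 CPM per kb.

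The 4 lineage transcription factors leaned to the higher side, 3 higher and 1 lower in KO (median log2 fold change 0.14). Nkx2-2, a homeodomain factor that promotes differentiation, had 10.8, 9.71 and 9.85 CPM in WT and 13.0 and 12.002 CPM in KO. It was higher in both KO libraries, and differed by 0.31 on the log2 scale (SE 0.12; adjusted p = 0.640 in edgeR). It shares 278 exonic bases with the antisense gene Nkx2-2os, which had 205 counts over the 5 libraries. Sox10, the factor that directs myelin gene transcription, varied little among WT libraries at 122.5, 123.1 and 121.8 CPM and reached 128.9 and 139.1 CPM in KO (0.13, SE 0.06; adjusted p = 0.666 in edgeR). Olig1, the most abundant of the 4 per kilobase at 80.7 CPM per kb in WT, had 178.1, 188.9 and 156.7 CPM in WT and 201.1 and 188.2 CPM in KO, where KO replicate 2 fell below WT replicate 2 (0.16, SE 0.08). Olig2, which specifies the lineage, went the other way at −0.14 (SE 0.11), with KO replicate 1 at 52.4 CPM inside the WT range and KO replicate 2 at 40.1 CPM below it. Without KO replicate 2 its sign turned to 0.04.

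Genes of newly formed oligodendrocytes had log2 fold changes from −0.15 to 0.03, and none had an unadjusted p under 0.05, where 7.57% of all genes had. Bcas1, a marker of cells that have just begun to myelinate, was the most abundant per kilobase at 194 CPM per kb in WT. Its levels were 773.1, 693.2 and 728.0 CPM in WT and 739.9 and 755.6 CPM in KO, with a log2 fold change of 0.03 (SE 0.06, 95% interval −0.11 to 0.17). Enpp6, a choline phosphodiesterase and another mark of cells starting to myelinate, ran from 64.1 to 75.7 CPM in WT and from 64.9 to 75.0 CPM in KO (−0.01, SE 0.09, 95% interval −0.21 to 0.19). Tcf7l2, a transcription factor of the Wnt pathway, had 4.28, 3.73 and 5.11 CPM in WT and 3.80 and 4.06 CPM in KO, and its interval was wide (−0.15, SE 0.21, 95% interval −0.61 to 0.31). Itpr2, an intracellular calcium channel, had 39.7, 38.1 and 42.9 CPM in WT and 42.0 and 35.3 CPM in KO (−0.06, SE 0.09). Tmem2, listed as Cemip2 in the annotation, stood at 0.03 (SE 0.12). The lower levels of the committed precursor genes were not seen in these 5, and the difference between the stages was not tested. Bcas1 was more abundant per kilobase than the mature gene Mog, at 147 CPM per kb in WT. Which cells gave the counts of these 5 genes was not tested.

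**Figure D3:**
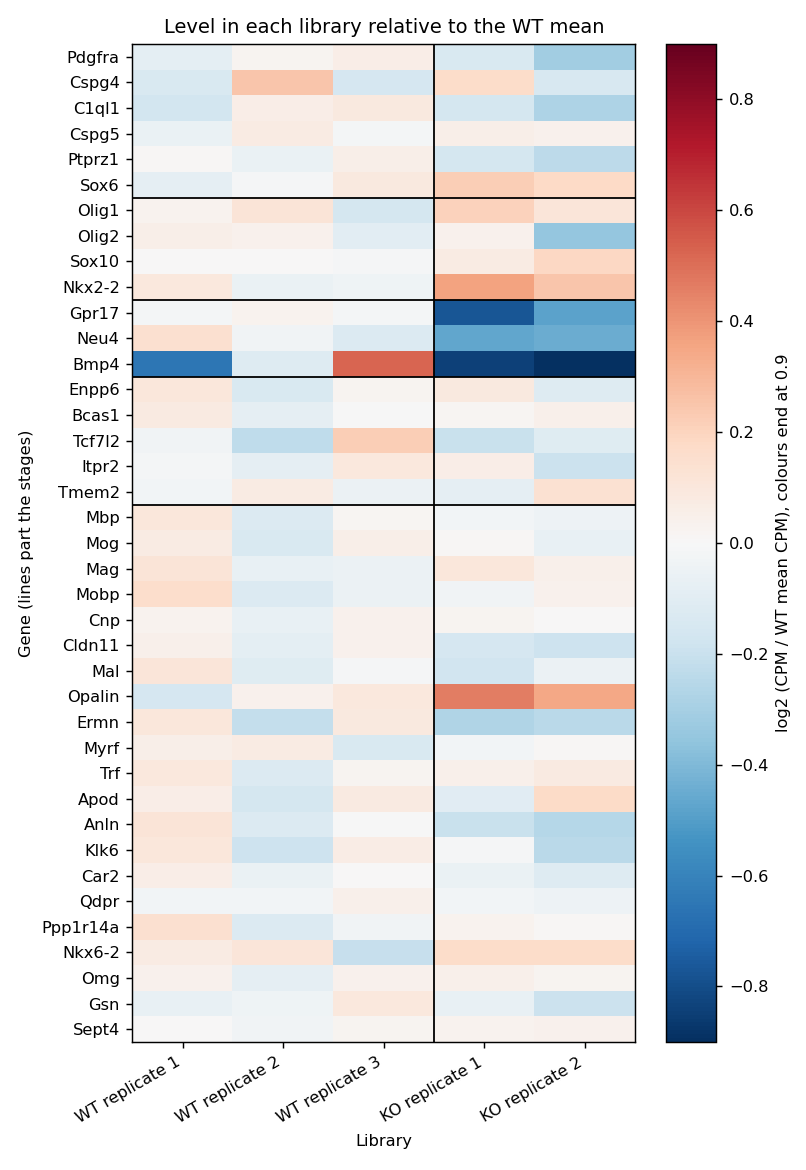
Level of each of the 39 genes (rows, in order of stage) in each library (columns) as log2 of CPM over the WT mean, with blue for lower and red for higher. The rows of Gpr17 and Neu4 are blue in both KO libraries, Opalin is red in both, and Bmp4 spreads widely within WT.

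Mature myelin genes were divided evenly, 11 lower and 10 higher in KO. Their summed level was 32146, 27742 and 30191 CPM in WT and 29468 and 29558 CPM in KO, so that both KO libraries lay inside the WT range. Much of the WT spread ran through the whole set: WT replicate 1 was the highest library for 12 of the 21 genes and WT replicate 2 the lowest for 10. Mbp, the myelin basic protein gene, had the highest level per kilobase of the 39, at 1982 CPM per kb in WT. Its levels were 17991, 15414 and 16952 CPM in WT and 16480 and 16226 CPM in KO, with a log2 fold change of −0.04 (SE 0.08, 95% interval −0.21 to 0.13). For 20 of the 21 genes the 95% interval lay within 0.5 of 0 on the log2 scale, the exception being Opalin.

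Some structural genes of myelin had log2 fold changes near 0. Mobp, a basic protein of the compact layers, had a log2 fold change of 0.01 (SE 0.08), and Mag, the adhesion molecule facing the axon, 0.08 (SE 0.07). Mog, on the outermost surface, stood at −0.03 (SE 0.07), and Cnp, an enzyme that keeps cytoplasmic channels open, at 0.01 (SE 0.06). Mal, a membrane-raft proteolipid, lay at −0.11 (SE 0.07). Omg, a glycoprotein on oligodendrocytes and neurons, lay at 0.04 (SE 0.06).

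Opalin, a membrane glycoprotein of the myelin sheath and its paranodal loops on chromosome 19 from 41061710 to 41077113, was the exception. It had 36.4, 41.4 and 43.2 CPM in WT and 55.4 and 51.2 CPM in KO, where both KO libraries lay above all WT libraries. Its mean level was 32.2% higher in KO, with a log2 fold change of 0.40 (SE 0.09, 95% interval 0.21 to 0.59) and an adjusted p of 0.267 in edgeR, which did not pass. DESeq2 gave 0.117, and among the alternatives tried it passed (adjusted p = 0.0264) only in edgeR without a filter on low counts, under which 0.373% of all genes passed. Relative to the Mog level, Opalin amounted to 13.8%, 18.2% and 16.6% in WT and 21.9% and 21.4% in KO.

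A few mature genes with lower KO levels had unadjusted p-values under 0.05. Ermn, a cytoskeletal protein of late myelinating cells, had 457.6, 367.3 and 453.7 CPM in WT and 354.0 and 361.1 CPM in KO (log2 fold change −0.25, SE 0.09; adjusted p = 0.606 in edgeR). WT replicate 2 lay close to the KO libraries. Anln, an actin-binding scaffold that places septins in myelin, had 277.2, 235.3 and 256.1 CPM in WT and 222.9 and 214.2 CPM in KO (−0.23, SE 0.07; adjusted p = 0.539 in edgeR). Its partner Sept4, a septin, stood at 0.03 (SE 0.05), with every library between 418.8 and 439.7 CPM and the KO libraries just above the WT ones. Cldn11, the claudin that seals the layers of myelin, had 458.8, 418.1 and 456.0 CPM in WT and 400.1 and 391.0 CPM in KO (−0.17, SE 0.06; adjusted p = 0.621 in edgeR). For these 3 genes KO lay below WT without overlap.

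The other mature genes did not pass either. Myrf, the transcription factor that switches on myelin genes, stood at −0.01 (SE 0.07), with 242.0 to 279.6 CPM in WT and 261.6 to 268.1 CPM in KO. The homeodomain factor Nkx6-2 stood at 0.16 (SE 0.10), with 27.6 CPM in each KO library, above the 21.4 to 26.6 CPM of WT. Trf, the iron carrier transferrin, stood at 0.06 (SE 0.07), and Apod, a lipid-binding apolipoprotein, at 0.04 (SE 0.09). Car2, a carbonic anhydrase, lay at −0.09 (SE 0.06), and the protease gene Klk6, abundant in oligodendrocytes of the cord, at −0.12 (SE 0.10). Qdpr, which recycles tetrahydrobiopterin, and the phosphatase inhibitor Ppp1r14a lay at −0.03 (SE 0.06) and 0.02 (SE 0.09). Gsn, an actin-severing protein that meningeal fibroblasts also make, lay at −0.13 (SE 0.07) with no overlap, from 334.5 to 373.9 CPM in WT and 305.2 to 333.3 CPM in KO. Mobp, Cnp, Ermn, Qdpr and Nkx6-2 share exonic bases with other genes of the count table, and their counts are less certain for that. The same holds for Pdgfra, Olig1, Bmp4, Bcas1 and Tmem2 of the other stages. Bcas1 shares 440 exonic bases with Bcas1os1 and Bmp4 shares 89 with Gm15217, both on the opposite strand. Trf, over 63.5% of its exonic bases, and Sept4 share bases with the annotated genes Gm20425 and Gm11492. Those genes have no entry among the deposited counts.

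The stage scores, each the mean log2 CPM of a stage's genes minus its WT mean, put the libraries side by side. For committed precursors they were −0.14, −0.01 and 0.15 in WT and −0.66 and −0.59 in KO. For mature cells they were 0.06, −0.08 and 0.01 in WT and −0.01 and −0.02 in KO, and the newly formed scores of both KO libraries also lay inside the WT range. The lineage transcription factors scored 0.04, 0.03 and −0.07 in WT and 0.17 and 0.05 in KO. Precursor genes scored −0.08, 0.06 and 0.02 in WT and 0.00 and −0.12 in KO.

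**Figure D4:**
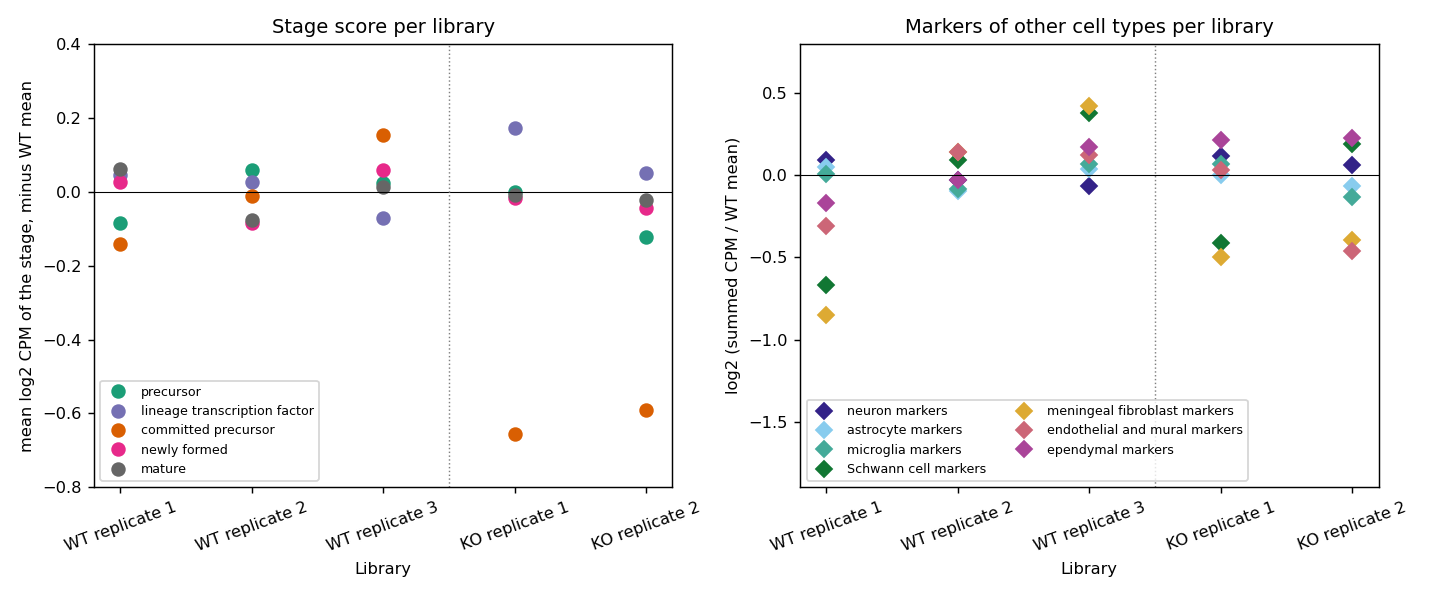
Left, score of each stage in each library (mean log2 CPM minus the WT mean). Right, summed CPM of markers of 7 other cell types in each library as log2 over the WT mean. The committed precursor score is the only one of the 5 that lies far below 0 in both KO libraries, at −0.66 and −0.59, and meningeal and Schwann markers are lowest in WT replicate 1.

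Further genes of each stage, from lists written with earlier results of these data known, were read out of the same fit, and none passed in edgeR. Of 18 tested genes of committed and newly formed cells, 13 were lower in KO (median log2 fold change −0.12). At an unadjusted p under 0.05, 8 of them (44.4%) were lower, where 4.07% of all genes were, and 0 were higher. As the list was written with earlier results known, this share is no independent support for a difference at these stages. Tns3, a tensin that links integrins to actin and marks immature oligodendrocytes, had 188.6, 192.9 and 178.0 CPM in WT and 142.4 and 137.5 CPM in KO. Its groups were well parted (log2 fold change −0.41, SE 0.06). The adjusted p was 0.0694 in edgeR, 4.15e-05 in DESeq2 and 0.0299 with robust dispersion. Cnksr3, a scaffold protein, stood at −0.61 (SE 0.16) and Plekha1, a phosphoinositide-binding protein, at −0.26 (SE 0.07). Sirt2, a deacetylase and the most abundant of the list per kilobase, stood at −0.07 (SE 0.06).

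Of 19 further precursor genes 11 were lower and 8 higher, with 3 (15.8%) at an unadjusted p under 0.05 in each direction, against 4.07% of all genes lower and 3.49% higher. Dscam, a cell adhesion molecule, was higher (0.21, SE 0.06), Susd5 lower (−0.43, SE 0.14) and Luzp2 lower (−0.23, SE 0.08), each short of the threshold, and the abundant endothelin receptor gene Ednrb stood at −0.15. Of 31 further myelin genes 16 were lower and 15 higher, and the median lay at −0.0027 on the log2 scale. At an unadjusted p under 0.05, 3 (9.68%) were higher and 1 (3.23%) lower in KO. Among the higher were Cdc42ep2, an effector of the GTPase Cdc42, at 0.24 and Adamtsl4 at 0.20. The lower one, Jam3, a junctional adhesion molecule named after its values were seen, had 76.9, 65.0 and 74.1 CPM in WT and 62.6 and 64.3 CPM in KO (−0.18, SE 0.08; adjusted p = 0.657 in edgeR).

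Among 16 genes that set apart states of mature oligodendrocytes 14 were lower in KO (median log2 fold change −0.06). Ptgds, a prostaglandin synthase also made by meninges, had 865.9, 928.4 and 1137 CPM in WT and 799.2 and 811.6 CPM in KO (−0.28, SE 0.10; adjusted p = 0.610 in edgeR). The meningeal markers summed to 279.5, 558.2 and 676.5 CPM in WT and to 357.6 and 384.9 CPM in KO. The part of meningeal cells in the Ptgds levels was not tested. S100b, the most abundant of the list per kilobase, stood at −0.04, Dpyd at −0.47 and Spock3 at −0.16.

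Regulators of the lineage were mixed, 17 lower and 20 higher of 37 tested. Klf9, a thyroid hormone and glucocorticoid induced factor that favours oligodendrocyte maturation, had 161.0, 172.3 and 154.0 CPM in WT and 120.2 and 111.0 CPM in KO. The groups did not overlap, and the log2 fold change was −0.49 (SE 0.07; adjusted p = 0.0603 in edgeR, 4.69e-06 in DESeq2). Its relative Klf13 stood at −0.46 (SE 0.09; adjusted p = 0.193 in edgeR, 0.00267 in DESeq2), and the helix-loop-helix inhibitor Id4 at −0.20. Thra, the thyroid hormone receptor alpha gene and the most abundant of the list per kilobase, stood at 0.04. These factors act in many cell types, and the whole tissue does not show in which of them the levels differed.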

How the data were processed

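The authors deposited 1 table of raw counts of reads per gene for the 5 libraries, with no normalization. Per the labels' protocols the libraries were made with a stranded polyadenylated RNA kit, and per the submitters' processing notes cutadapt, Trimmomatic, STAR 2.5.2b, HTSeq and GRCm38 were used. Neither the annotation release nor the strand setting is given in the sources used here. Groups came from sample titles. GENCODE M21 (GRCm38) gave symbols, positions and exon lengths for 55230 of 55471 identifiers. The other 241 held 0.00196% of counts.

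Genes were kept by filterByExpr at a minimum count of 10 and a minimum total of 15, and WT and KO were compared over 16052 genes with edgeR 4.0.16 in R 4.3.3 (TMM factors, quasi-likelihood F test, no covariate, Benjamini-Hochberg adjustment, threshold 0.05). The common biological coefficient of variation was 7.48%. Scores used log2 CPM (prior count 2), and levels per kb used the union of annotated exons. DESeq2 1.42.0, limma-voom (limma 3.58.1), other size factors, other filters, robust dispersion, a replicate block and each library left out were the alternatives. A meningeal covariate was added after the data were seen. Within each group the libraries differed by more than sampling noise (chi-square per degree of freedom 4.17 to 7.89).

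The members and lists were chosen with earlier results of these data known. Values in every library are given for the 3 members of smallest p per stage, members with an unadjusted p under 0.05 and the most abundant per kb. The rule for lists took the 3 genes of smallest p and the most abundant of each, and some genes that it selects are not reported here. Other members are named with a fold change. 1 listed symbol, Pcdh17it, had no match.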

Additional observations from a re-analysis of the deposited data

How the results depend on the processing

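Of 546 log2 fold changes of the 39 genes under alternatives, 511 kept their direction and side of the threshold, 6 became significant and 29 changed sign, and 25 genes never changed sign. The count of passing genes over all genes was 3, and became 40 with DESeq2, 6 with DESeq2 size factors in edgeR, 96 without a filter, 12 with robust dispersion, 1 with limma-voom, 7 with the meningeal covariate and 0 to 58 with 1 library left out (0 without KO replicate 1, 1 without WT replicate 2, 10 without WT replicate 3 and 58 without WT replicate 1). The count of passing lineage genes was 0, and became 1 (Gpr17) with DESeq2 and robust dispersion, 2 (Gpr17 and Opalin) without a filter, and 0 to 1 with 1 library left out, Gpr17 passing without WT replicate 1. At an unadjusted p under 0.05 there were 10. The total over the related lists was 0, and became 3 (Klf9, Klf13 and Tns3) with DESeq2 and without a filter, 2 with robust dispersion (Klf9 and Tns3) and 0 to 2 with 1 library left out (2 without WT replicate 1 and without WT replicate 3). Lineage genes whose groups did not overlap numbered 16 to 25 of 39 (41.0% to 64.1%) with 1 library left out. Over all genes the share was 33.7% to 52.8%. The cause of these moves was not tested.

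With 1 library left out the median log2 fold change ran from −0.20 to −0.045 for precursors, −0.77 to −0.48 for committed precursors, −0.10 to 0.018 for newly formed cells, −0.046 to 0.021 for mature cells and −0.052 to 0.014 for all 39 genes, which stood at −0.045 with the meningeal covariate. With 1 KO library left, it is assumed to vary as the WT libraries do.

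The replicate numbers of the titles do not state a pairing. Deviations of same-numbered libraries had a correlation of 0.06 for number 1 and 0.00 for number 2. For WT replicate 3 with KO replicate 2 it was 0.06. With 2 KO libraries the value for one is the negative of that for the other. These correlations therefore cannot show or exclude a pairing. With the replicate block the passing genes numbered 25 over all genes (0.156%), 1 in the lineage (Gpr17) and 3 in the related lists. Sign changes with the replicate block were Cspg4 to −0.052, Enpp6 to 0.0015, Mog to 0.0031 and Mobp to −0.012.

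Where the sign changed with 1 library left out, the values ran from −0.15 to 0.16 for Cspg4, −0.35 to 0.038 for Olig2, −0.12 to 0.089 for Enpp6, −0.0053 to 0.074 for Bcas1, −0.19 to 0.059 for Itpr2, −0.082 to 0.13 for Tmem2, −0.095 to 0.015 for Mbp, −0.090 to 0.012 for Mog, −0.052 to 0.094 for Mobp, −0.018 to 0.028 for Cnp, −0.073 to 0.032 for Myrf, −0.10 to 0.17 for Apod, −0.038 to 0.10 for Ppp1r14a and −0.00088 to 0.058 for Omg. With the meningeal covariate Mobp turned to −0.057 and Ppp1r14a to −0.036. Tcf7l2 and Bmp4, the least abundant of the 39 in CPM, had the largest standard errors, and the part of depth in this was not tested.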

Other observations

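Genes around the lineage were read out of the same edgeR fit, and none of those below passed. Of 24 genes of the node of Ranvier, the paranode and axon-glia adhesion, 19 stood higher in KO, the median being 0.06 on the log2 scale, against 0.00 over all genes tested. Nectin1, an adhesion molecule, had 28.5, 31.4 and 25.8 CPM in WT and 39.3 and 35.7 CPM in KO (0.39, SE 0.10; adjusted p = 0.391, edgeR quasi-likelihood test). Cadm3, an adhesion molecule on axons, stood at 0.17 and Lgi3, a secreted protein, at 0.14, while Cadm4, its counterpart on myelinating cells, stood at 0.01. Several of these genes are expressed by neurons. Neuron markers were higher in KO in 11 of 14 cases (median 0.11), and their part in these values was not tested.

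Of 55 growth factor and receptor genes 30 were lower and 25 higher in KO. Notch1, the receptor through which axons hold precursors back, had 36.4, 40.2 and 35.8 CPM in WT and 48.5 and 43.7 CPM in KO (0.30, SE 0.08; adjusted p = 0.475). Nrg1, a ligand of ErbB receptors, stood at 0.26, Bmpr1a, a receptor for BMP4, at −0.21 and the adenosine receptor gene Adora1 at −0.03. Among 31 genes of growth signalling and the myelin cytoskeleton 20 were lower and 11 higher. Hnrnpa2b1, which carries Mbp mRNA into processes, stood at −0.20, Septin7 at −0.17, the integrin gene Itgb1 at −0.18 and Cfl1, an actin-severing protein, at 0.06. Genes of dividing cells were scarce, summing to 60.9 to 64.6 CPM in WT and 57.8 to 60.0 CPM in KO. Of the 14 tested, 10 were lower and 4 higher, with 0 at an unadjusted p under 0.05. Cenpf stood at −1.06 at a WT mean of 0.982 CPM, Pcna at −0.12 and Rrm2 at −0.38.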
